A study of Homo sapiens with 4 samples.

Results

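Developmental transcription factors of the SOX, FOX, PAX, GATA, T-box, sine oculis homeobox, DLX, LHX, MSX, IRX, NKX, PRRX, PITX, ZIC, TWIST, SNAI and ZEB families were followed in U87MG cells after knockdown of *KDM2B*. The members were taken by their gene symbol, a family name followed by a digit (for forkhead genes, FOX, a letter and a digit). Antisense and overlapping-transcript symbols were left out. The table held 89 such genes of 22578 in all, from 17 of the 18 families searched, with no EN gene among them. By this rule *FOXL2NB*, a neighbor of a forkhead gene, and *ZEB2P1*, a pseudogene of *ZEB2*, also counted as members.

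U87MG is an established human glioblastoma line. Cells carried either a hairpin against firefly luciferase (shControl) or hairpins against *KDM2B* (shKDM2B), both delivered by retroviral particles, with 2 libraries in each group. The treatment text has cells of passage 5 transduced on day 1, puromycin (1 µg/ml) added from day 3, and cells replated on day 6 and harvested on day 9, whereas the sample labels give passage 8. Which hairpin against *KDM2B* each library carried was not given in the sources used here. The study calls the replicates biological, without saying whether they came from separate transductions or cultures, so p-values refer to the spread between these libraries, part of which may be technical.

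These families hold sequence-specific regulators that pattern the embryo and fix cell identity. Forkhead, homeobox, SOX and T-box proteins each bind DNA through the domain that names them, and many of their genes are kept silent in adult cells by Polycomb complexes. SNAI, ZEB and TWIST proteins repress epithelial adhesion genes and drive the epithelial-mesenchymal transition. KDM2B removes methyl groups from H3K36 and binds unmethylated CpG dinucleotides through its CxxC zinc finger, and it recruits a variant Polycomb complex to CpG islands.

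*KDM2B* itself had 1257 and 1253 counts in the control libraries but 520 and 465 after knockdown. Both shKDM2B libraries were lower, and the log2 fold change was -1.60 (SE 0.06, adjusted p = 3.38e-19, edgeR's quasi-likelihood test). Library totals ran from 30470803 to 33770421 counts, and the member genes together took 0.156% and 0.158% of them in shControl and 0.142% and 0.141% in shKDM2B. Of 8 markers of mesenchymal glioblastoma, 2 rose (*CHI3L1*, log2 fold change 1.70; *TGFBI*, 0.83) and 4 fell (*TIMP1*, -1.39; *VIM*, -0.83; *CD44*, -0.74; *LGALS1*, -0.63). Their summed level was 13189 to 13332 CPM with shControl and 10372 to 10492 CPM with shKDM2B. When the libraries were scaled on ribosomal protein genes in place of TMM (the edgeR scaling that takes most genes as unchanged), the 4 that fell were at -1.0, -0.43, -0.35 and -0.23. Of 4 astrocyte markers tested, *GFAP* rose from 77 and 68 to 168 and 172 counts (0.98), while the gap junction gene *GJA1* was far more abundant, with 9350 and 8849 against 9570 and 9708 counts. The summed level of these 4 was 338 to 345 CPM with shControl and 313 to 320 CPM with shKDM2B. Among immune markers, *PTPRC* had 3 to 10 counts and *ITGAM* 2 to 12, whereas *CD68*, a lysosomal gene that other cells also express, had 8402 and 8388 against 7858 and 7891 (-0.34, or 0.06 with the ribosomal protein scaling). The immune marker *CSF1R* had 410 and 364 counts with shControl against 491 and 542 with shKDM2B (0.17, not called). Of 4 neuron markers tested, 1 rose (*GAD1*) and 1 fell (*SNAP25*), and their summed level was 51.8 to 53.7 CPM with shControl and 44.6 to 44.7 CPM with shKDM2B. The part of other cell types in the results was not tested. In bulk RNA, fewer cells expressing a gene and less RNA per cell cannot be told apart.

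A gene was called when its Benjamini-Hochberg adjusted p over all genes tested was at most 0.05 and its fold change at least 1.5. Of all 21783 genes tested, 2887 were called higher in shKDM2B cells (13.3%) and 1478 lower (6.79%). Among the 88 tested factors, 15 were called higher (17.0%) and 10 lower (11.4%), together 28.4% against 20.0% of all genes. *FOXS1*, with 0 and 0 counts with shControl against 10 and 3 with shKDM2B, was under the minimum mean of 10 counts and was not tested. Of the 15 factors called higher, 4 (*PITX3*, *DLX3*, *DLX4* and *LHX9*) reached that minimum only through their shKDM2B counts. The remaining 63 were not called: 26 passed the adjusted p under 1.5-fold, 14 of them with a higher and 12 with a lower value, and 37 did not pass it. By the adjusted p alone, 29 factors were higher and 22 lower, where 28.4% and 29.5% of all genes were (57.9% together).

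The median log2 fold change was 0.04 over the tested factors and 0.01 over all genes. Scaling on 43 ribosomal protein genes in place of TMM moved these medians to 0.43 and 0.41. Under that scaling 33 factors were called higher and 7 lower, against 32.4% and 1.90% of all genes. Then 82.5% of the calls among the factors were higher, against 60% with TMM, and 94.5% against 66.1% over all genes. All 25 called factors kept their direction under both scalings, while the fold of *FOXC2*, *FOXD1* and *SNAI2* went below 1.5.

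**Figure D1:**
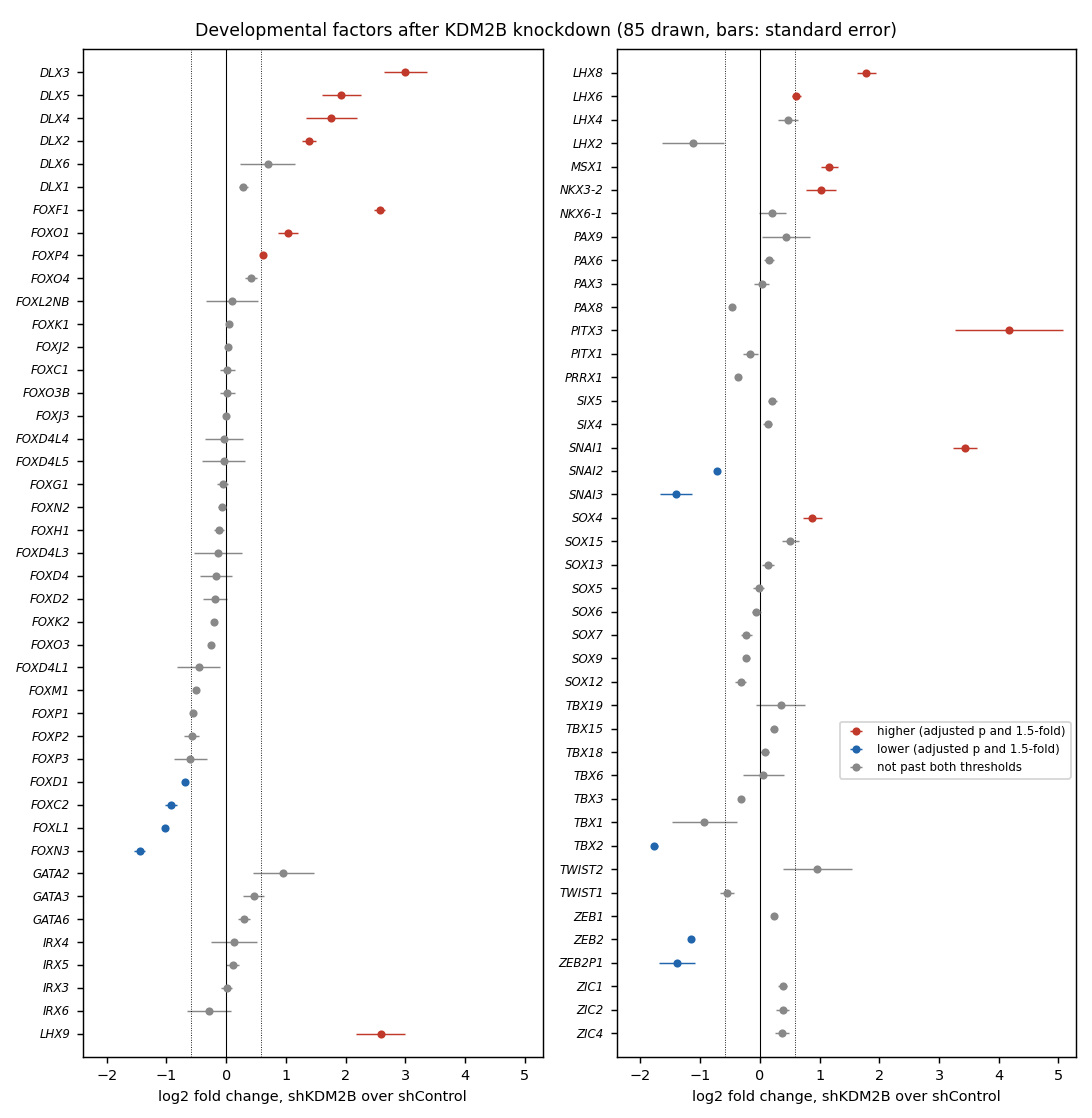
Log2 fold change (shKDM2B over shControl) of 85 tested factors, sorted by family and value, with standard errors as bars. Dotted lines mark 1.5-fold. Red points are the 15 factors called higher, blue points 9 called lower and gray points 61 not called.

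Promoter sequences of the called factors are shown because the CxxC domain of KDM2B binds CpG dinucleotides. RefSeq promoter entries of build GRCh38.p14 were matched for 60 of the 89 members. Over the 250 bases upstream of the start site, the factors held a median of 21.5 CpG dinucleotides, compared with 19 over the matched genes of the table and 11 over all 27305 promoters. At least 1 CpG occurred in 93.6% of all promoters. By call, the median was 22.5 (range 8 to 27) in 10 factors called higher, 13 (range 12 to 33) in 3 called lower and 21 (range 0 to 44) in 47 not called. The ranges overlapped throughout, and 7 of the 10 factors called lower had no entry. The windows of a pair of factors called higher, *PITX3* and *MSX1*, held 23 and 24 CpG. Those of a pair called lower, *ZEB2* and *FOXN3*, held 12 and 33. In each window, read 5′ to 3′ on the gene's strand, capitals mark CpG.
PITX3 (chr10:102241513-102241762, minus strand): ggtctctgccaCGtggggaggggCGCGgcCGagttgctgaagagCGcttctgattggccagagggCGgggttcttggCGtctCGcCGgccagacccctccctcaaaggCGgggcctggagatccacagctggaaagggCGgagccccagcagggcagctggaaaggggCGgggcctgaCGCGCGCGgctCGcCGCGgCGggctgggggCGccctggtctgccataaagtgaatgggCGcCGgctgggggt
MSX1 (chr4:4859415-4859664, plus strand): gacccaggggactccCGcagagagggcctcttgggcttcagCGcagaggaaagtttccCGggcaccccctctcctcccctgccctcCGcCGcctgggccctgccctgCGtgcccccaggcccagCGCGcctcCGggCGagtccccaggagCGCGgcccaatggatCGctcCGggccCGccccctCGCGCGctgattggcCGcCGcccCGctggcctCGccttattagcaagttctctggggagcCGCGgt
ZEB2 (chr2:144520120-144520369, minus strand): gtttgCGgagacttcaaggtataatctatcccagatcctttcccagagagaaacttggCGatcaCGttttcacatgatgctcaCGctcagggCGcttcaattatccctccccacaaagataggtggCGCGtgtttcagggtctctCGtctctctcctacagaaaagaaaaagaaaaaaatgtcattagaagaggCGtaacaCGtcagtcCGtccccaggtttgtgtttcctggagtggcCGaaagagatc
FOXN3 (chr14:89619166-89619415, minus strand): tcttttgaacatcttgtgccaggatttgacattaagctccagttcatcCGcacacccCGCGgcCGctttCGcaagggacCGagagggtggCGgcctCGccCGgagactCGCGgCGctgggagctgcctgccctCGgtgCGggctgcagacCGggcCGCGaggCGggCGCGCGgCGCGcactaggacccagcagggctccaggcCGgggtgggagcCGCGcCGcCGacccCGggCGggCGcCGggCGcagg

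Among the drivers of the epithelial-mesenchymal transition, *SNAI1* rose while *SNAI2*, *SNAI3* and *ZEB2* fell. *SNAI1* (ENSG00000124216), which encodes Snail, a zinc finger repressor of E-cadherin, lies on the plus strand of chromosome 20 of GRCh37, from 48599517 to 48605423. It had 12 and 17 counts with shControl against 181 and 192 with shKDM2B. Both shKDM2B libraries lay far above both controls. The scaled level was 0.492 ± 0.130 CPM in control cells and 5.31 ± 0.266 CPM after knockdown (SD, n = 2 each), a ratio of 10.8. The log2 fold change was 3.43 (SE 0.20, adjusted p = 1.28e-14, edgeR's quasi-likelihood test).

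*SNAI2* encodes Slug, a repressor that acts in neural crest and mesenchymal cells, and was among the most abundant members (17.7 RPKM in shControl, per kilobase of annotated exon). Its counts were 1824 and 1615 with shControl against 1256 and 1221 with shKDM2B, so the groups did not overlap after scaling. The log2 fold change was -0.72 (SE 0.04, adjusted p = 7.48e-14, edgeR), or -0.32 when scaled on ribosomal protein genes. *SNAI3*, the third family member, had 44 and 35 counts against 18 and 17 (log2 fold change -1.41, SE 0.27, adjusted p = 6.84e-05, edgeR). In RPKM, *SNAI1* rose from 0.288 to 3.12 and *SNAI2* fell from 17.7 to 10.8, so *SNAI2* remained the more abundant message in shKDM2B cells.

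*ZEB2* (ENSG00000169554), a zinc finger and homeodomain repressor whose loss causes Mowat-Wilson syndrome, is on the minus strand of chromosome 2 of GRCh37, from 145121931 to 145278624. Its counts were 4171 and 3937 with shControl against 2195 and 2112 with shKDM2B. Both shKDM2B libraries were lower by a similar margin, 137 ± 2.57 CPM against 61.3 ± 1.16 CPM (SD, n = 2 each). The log2 fold change was -1.16 (SE 0.04, adjusted p = 2.14e-20, edgeR's quasi-likelihood test). The pseudogene *ZEB2P1* had 45 and 35 counts against 25 and 11 and was called lower (log2 fold change -1.39, SE 0.30), with values between -2.09 and -0.93 when a shKDM2B library was left out. Of its windows of 50 bases, the read length, 5.48% also occur in other transcripts, 4.53% in those of *ZEB2*.

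The paralog *ZEB1*, a repressor of the same type, had 1033 and 1060 counts with shControl against 1457 and 1473 with shKDM2B. Its log2 fold change of 0.24 passed the adjusted p (3.74e-05, edgeR) but not 1.5-fold, and it was 0.64, past both thresholds, when scaled on ribosomal protein genes. *TWIST1*, the helix-loop-helix factor of cranial mesenchyme, had 351 and 273 counts against 275 and 229 (log2 fold change -0.55, not called). It was past both thresholds without shControl 2 (-0.70) or without shKDM2B 1 (-0.69). *TWIST2* had 6 and 3 counts against 12 and 9 and did not pass with TMM (0.96), but was 1.35 and called with the ribosomal protein scaling.

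Outside the families, 17 adhesion, matrix and cytoskeleton genes of the epithelial-mesenchymal transition were tested. Of these, 8 rose and 4 fell, where 13.3% and 6.79% of all genes did (median log2 fold change 0.32). With either shControl 2 or shKDM2B 2 left out, 5 rose. Those that fell included *FN1*, which encodes fibronectin (162660 and 156081 against 92023 and 91862 counts, log2 fold change -1.04), *VIM*, the mesenchymal filament vimentin (-0.83), and *JUP*, the epithelial junction protein plakoglobin (-0.74). *CDH2*, which encodes N-cadherin, a mesenchymal cadherin, rose by 0.59 (SE 0.04), at the 1.5-fold limit, and was 0.58, not called, under 6 alternative settings. The other 7 that rose, named after their values were seen, are known from epithelial cells and their junctions, filaments or basement membrane: *CDH3* (2.88), *CLDN1* (1.24), *CLDN7* (1.14), *KRT18* (0.83), *KRT8* (0.78), *EPCAM* (0.73) and *LAMA3* (0.66). *CLDN4*, an epithelial claudin, fell (-0.79), as did *JUP*. The remaining genes of the 17 were not called: *OCLN* (-0.12), *TJP1* (0.32), *ESRP2* (-0.13), *OVOL2* (-0.13) and *ITGB4* (0.00). The 7 named above lay at 0.0345 to 0.439 RPKM in shControl. *KRT18* had 23 and 19 counts against 28 and 61, and *EPCAM* 22 and 21 against 40 and 45. *CDH3*, with 5 and 8 against 47 and 68, passed the filter only through shKDM2B. The E-cadherin gene *CDH1* was not among the 17. A gain of epithelial character was not tested. Under scaling on ribosomal protein genes 1 of the 17 was called lower, with *FN1* at -0.64 and *VIM* at -0.43.

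**Figure D2:**
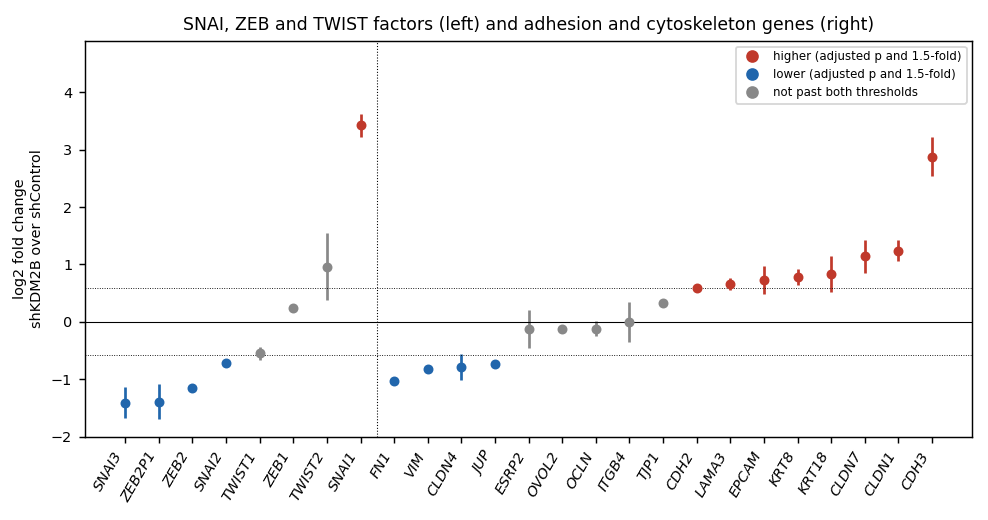
Log2 fold change (shKDM2B over shControl, bars: standard error) of the SNAI, ZEB and TWIST genes, left of the dotted line, and of 17 adhesion, matrix and cytoskeleton genes, right of it. *SNAI1* is the one factor called higher, while *SNAI2*, *SNAI3*, *ZEB2* and *ZEB2P1* lie below the lower dotted line at 1.5-fold.

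Forkhead factors were the largest family, with 29 tested, of which 3 rose (*FOXF1*, *FOXO1* and *FOXP4*) and 4 fell (*FOXN3*, *FOXL1*, *FOXC2* and *FOXD1*). Over all genes, 13.3% were called higher and 6.79% lower. The family median was -0.12. *FOXF1* (ENSG00000103241), a regulator of lung and gut mesenchyme, lies on chromosome 16 of GRCh37, from 86544133 to 86549028, and had 118 and 109 counts with shControl against 806 and 799 with shKDM2B. Its CPM was 3.84 ± 0.131 in shControl and 22.9 ± 0.0507 in shKDM2B (SD, n = 2 each), the control libraries both at the low end. The log2 fold change was 2.57 (SE 0.09, adjusted p = 2.39e-19, edgeR's quasi-likelihood test).

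*FOXC2*, needed for lymphatic vessel valves, and *FOXL1*, a gut mesenchyme factor, are on the same strand 51.4 and 60.9 kb from *FOXF1* and moved the other way. *FOXL1*, one of the most abundant members (19.8 RPKM in shControl), had 2893 and 2969 counts with shControl against 1677 and 1756 with shKDM2B (log2 fold change -1.02, SE 0.04, adjusted p = 8.77e-18, edgeR). *FOXC2* had 337 and 344 counts against 204 and 221 (log2 fold change -0.93, SE 0.10), and -0.53, not called, when scaled on ribosomal protein genes. The antisense gene *FOXC2-AS1*, which shares 57.0% of its exonic bases with *FOXC2*, had 146 and 149 counts against 97 and 93 (-0.88). No strand setting is given for the counts, so reads of a gene and its antisense partner cannot be told apart where they overlap.

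*FOXN3*, a checkpoint suppressor first known from yeast screens, had 566 and 578 counts with shControl against 237 and 260 with shKDM2B. Both shKDM2B libraries were lower (19.4 ± 0.714 against 7.08 ± 0.523 CPM, SD, n = 2 each), and the log2 fold change was -1.45 (SE 0.09, adjusted p = 2.26e-14, edgeR). Its promoter window was the most CpG-rich of those printed. *FOXD1*, a factor of kidney stroma, had 1517 and 1416 counts against 1078 and 1073 (log2 fold change -0.69, SE 0.04). It fell by 0.30, under 1.5-fold, when scaled on ribosomal protein genes, and 79.0% of its exonic bases are shared with *AC099522.1* on the same strand, so its counts cannot be assigned with certainty. *FOXD1-AS1* was also called lower (-0.61). All of its exonic bases are shared with *AC099522.1* on the opposite strand, and 12.5% of the 50-base windows of *FOXD1* occur in it. With no strand setting given, its reads cannot be separated with certainty from those of *FOXD1*.

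The FOXO factors are restrained by insulin and AKT signaling and activate genes of stress resistance and atrophy. *FOXO1* had 38 and 53 counts with shControl against 109 and 113 with shKDM2B, with both shKDM2B libraries above the controls (log2 fold change 1.04, SE 0.17, adjusted p = 9.27e-06, edgeR). *FOXO4* had 216 and 221 counts against 346 and 349 (0.42, under 1.5-fold; 0.82 and called with the ribosomal protein scaling), and *FOXO3*, the most abundant of them, 1218 and 1208 against 1224 and 1186 (-0.26 with TMM, 0.14 with the ribosomal protein scaling). The entry *FOXO3B* shares 43.1% of its 50-base windows with *FOXO3* and cannot be fully separated from it. Of 19 genes that FOXO factors are known to activate, 8 rose and 4 fell, where 13.3% and 6.79% of all genes did (median 0.06). The ubiquitin ligase gene *FBXO32* went from 400 and 428 to 2675 and 2577 counts (log2 fold change 2.42, SE 0.05) and *KLF9*, which encodes a Krüppel-like factor, from 203 and 132 to 1112 and 1113 (2.48, SE 0.10). *CAT*, which encodes catalase, rose by 0.66, and the mitophagy gene *BNIP3* fell by 0.71.

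*FOXM1*, which activates genes of mitosis, was the most abundant member, at 31.9 RPKM in shControl and 22.6 in shKDM2B. Its counts were 4731 and 4550 against 3987 and 3813. After scaling the groups did not overlap, yet the log2 fold change of -0.50 (SE 0.03, adjusted p = 3.29e-13, edgeR) was under 1.5-fold, and with the ribosomal protein scaling it was -0.10. Of 18 mitotic genes known as FOXM1 targets, 3 fell (*CENPF*, encoding a kinetochore protein, -0.67; *NEK2*, a centrosomal kinase, -0.64; *CDC20*, an activator of the anaphase-promoting complex, -0.60) and 1 rose (*SKP2*, a subunit of the ubiquitin ligase that degrades p27, 0.76). Over all genes, 6.79% were called lower and 13.3% higher. The median of the 18 was -0.46, and that of the ribosomal protein genes was -0.37. A link of these values to *FOXM1* was not tested. With the ribosomal protein scaling *CENPF*, *NEK2* and *CDC20* were at -0.27, -0.24 and -0.20, and none was called. *CDC20* was also under 1.5-fold with a minimum mean of 50 counts (-0.57), without shControl 2 (-0.56) and without shKDM2B 2 (-0.58).

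The FOXP factors are repressors that act in lung, brain and lymphoid development. *FOXP4* rose slightly, with 771 and 739 counts against 1376 and 1372 (log2 fold change 0.62, SE 0.05, adjusted p = 6.39e-12, edgeR). *FOXP1*, by contrast, had 1605 and 1553 counts against 1227 and 1331 (-0.55), and *FOXP2* 145 and 157 against 119 and 121 (-0.58); neither reached 1.5-fold with all libraries. Both did so without shKDM2B 2 (-0.62 and -0.60), and *FOXP2* also without shControl 1 (-0.65). *FOXK2*, second in level, had 4941 and 4929 counts against 5105 and 5004 (log2 fold change -0.21 with TMM, 0.18 with the ribosomal protein scaling), and *FOXJ3* 1707 and 1724 against 2063 and 2005 (0.00 and 0.40). The *FOXD4* group of near-identical copies (*FOXD4*, *FOXD4L1*, *FOXD4L3*, *FOXD4L4*, *FOXD4L5*) had 12 to 31 counts per library, did not pass, and cannot be separated: 59.0% to 100% of their 50-base windows occur in another transcript.

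The homeobox families gave 10 of the 15 higher calls. By family, these were 4 of 6 tested DLX genes, 3 of 5 LHX, 1 of 1 MSX, 1 of 3 NKX and 1 of 3 PITX. The IRX, PRRX and sine oculis homeobox families gave no higher call, and NKX also gave 1 lower call. Among the 10, *PITX3*, *DLX3*, *DLX4* and *LHX9* reached the minimum mean of 10 counts only through shKDM2B, so this number depends on the filter. DLX genes, the vertebrate Distal-less homologs of the branchial arches and forebrain interneurons, had 4 of 6 members called higher, where 13.3% of all genes were. The family median was 1.58. *DLX3*, *DLX4* and *DLX6* reached the minimum mean of 10 counts only through shKDM2B, so both the count and the median depend on the filter. *DLX3*, known for teeth and hair, had 3 and 9 counts with shControl against 50 and 66 with shKDM2B. The ratio was 8.14 (exact 95% counting interval 4.49 to 16.2, counting error only), and the log2 fold change of 3.00 (SE 0.36, adjusted p = 3.23e-08, edgeR) ranged from 2.41 without shControl 1 to 4.0 without shControl 2. *DLX4*, 15 kb away on chromosome 17, had 6 and 6 counts against 30 and 19 (1.76, SE 0.43).

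*DLX2* had 93 and 97 counts against 317 and 275 (log2 fold change 1.39, SE 0.12, adjusted p = 1.60e-10, edgeR), while *DLX1*, 9.8 kb from it on chromosome 2 and expressed at a higher level, had 378 and 346 against 560 and 489 (0.29, under 1.5-fold; 0.69 and called with the ribosomal protein scaling). *DLX5*, a factor of jaw and bone, had 10 and 10 counts against 53 and 38 (1.93, SE 0.32). Its neighbor *DLX6*, 9.4 kb away on chromosome 7, had 7 and 8 against 15 and 14 and did not pass (0.70, adjusted p = 0.2, edgeR). With the ribosomal protein scaling *DLX6* was 1.09 and called. The antisense gene *DLX6-AS1* was called higher, from 51 and 29 to 65 and 92 counts (0.72).

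**Figure D3:**
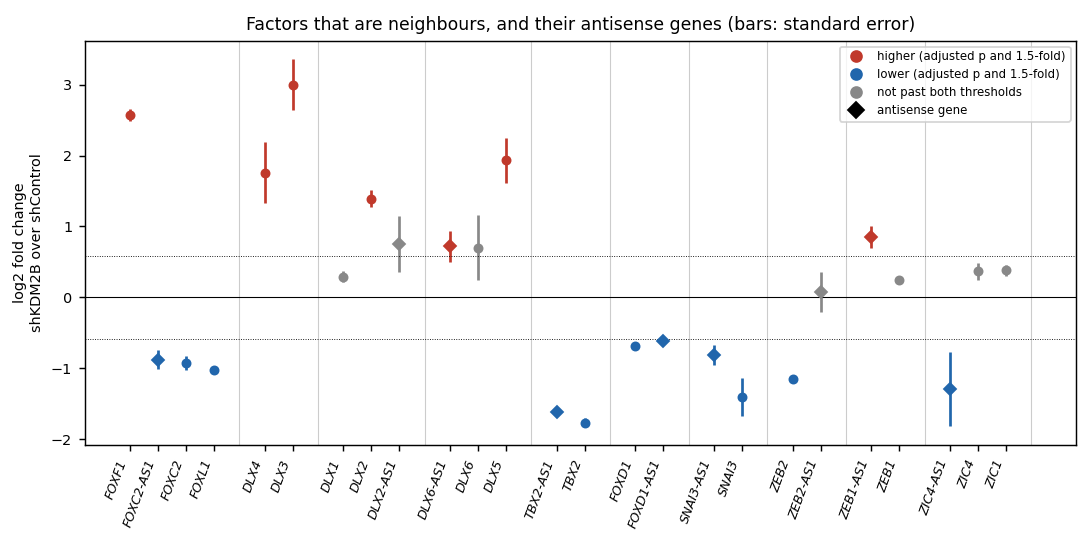
Log2 fold change (shKDM2B over shControl, bars: standard error) of factors that lie within 200 kb of each other, and of factors with an antisense gene (diamonds), grouped by locus. In the forkhead group on the left *FOXF1* is at 2.57 while *FOXC2* and *FOXL1* are at -0.93 and -1.02, whereas *TBX2* and *TBX2-AS1* lie together at -1.77 and -1.62.

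*MSX1*, a homeobox repressor that acts in palate and tooth development, had 74 and 74 counts with shControl against 218 and 175 with shKDM2B, both above the controls (log2 fold change 1.16, SE 0.14, adjusted p = 6.94e-08, edgeR). *PITX3*, which specifies midbrain dopamine neurons and the lens, had 1 and 0 counts with shControl against 12 and 14 with shKDM2B. The ratio was 21.9 (exact 95% counting interval 3.60 to 898), and 11.1 (1.83 to 456) without shControl 2. Without shControl 1 the control count was 0, and *PITX3* was at least 3.59-fold higher against a floor of 3 counts. The promoter windows of *MSX1* and *PITX3* held 24 and 23 CpG. *PITX1*, a hindlimb factor, did not pass (-0.16).

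LIM-homeodomain (LHX) factors specify neurons and depend on LDB adaptor proteins, which LMO proteins compete for. Of 5 tested, 3 rose, where 13.3% of all genes did. *LHX9* reached the minimum mean of 10 counts only through shKDM2B, so the number that rose depends on the filter. *LHX8*, a factor of cholinergic neurons, had 60 and 51 counts with shControl against 259 and 193 with shKDM2B (log2 fold change 1.78, SE 0.16, adjusted p = 1.43e-10, edgeR). *LHX9*, a gonad factor, had 6 and 4 against 29 and 44 (2.59, SE 0.41), and *LHX6*, a factor of cortical interneurons, 349 and 350 against 604 and 662 (0.61, SE 0.08). The call of *LHX6* was lost without shKDM2B 2 (0.53). *LHX4* had 57 and 59 counts against 95 and 96 (0.47, or 0.87 and called with the ribosomal protein scaling). *LHX2*, a cortex factor, had 10 and 14 against 4 and 9. It was at -1.12 (adjusted p = 0.068, edgeR), with values from -1.81 to -0.65 when 1 library was left out.

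Of 20 tested cofactors of these families, 3 rose and 2 fell, where 13.3% and 6.79% of all genes did (median -0.08). The LIM-only gene *LMO1*, a T-cell leukemia oncogene, went from 10 and 13 to 137 and 144 counts, both shKDM2B libraries far above the controls (log2 fold change 3.35, SE 0.22, adjusted p = 1.66e-13, edgeR). *LDB2*, an adaptor that binds LHX and LMO proteins, had 160 and 152 counts against 105 and 97 (-0.87, SE 0.13; -0.48 with the ribosomal protein scaling). The Groucho corepressor *TLE1* was at -0.63, but under 1.5-fold without shControl 2 (-0.55) and with the ribosomal protein scaling (-0.24). *ZFPM1*, a GATA cofactor, was at 0.64, but was not called by DESeq2 (adjusted p = 0.16) and was 0.41, under 1.5-fold, without shControl 1.

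*NKX3-2*, a factor of cartilage and the axial skeleton, had 18 and 25 counts with shControl against 53 and 51 with shKDM2B, both shKDM2B libraries above the controls (log2 fold change 1.02, SE 0.25, adjusted p = 7.80e-04, edgeR). *NKX6-1* had 31 and 30 counts against 44 and 40 (0.21; 0.61 and called with the ribosomal protein scaling).

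The remaining homeobox and paired-box families had no call with edgeR or DESeq2. *SIX4* and *SIX5* encode partners of EYA proteins. *SIX4* did not pass (0.13). *SIX5* had 430 and 435 counts against 583 and 603 (0.21, or 0.61 and called with the ribosomal protein scaling), and 59.6% of its exonic bases are shared with other genes. *PRRX1*, a limb mesenchyme factor of high level, had 2271 and 2262 against 2067 and 2086, at -0.37 with TMM and 0.02 with the ribosomal protein scaling. None of the 4 IRX genes passed the adjusted p (-0.29 to 0.13), the unadjusted p of 0.05 or DESeq2. Of the 4 PAX genes, 1 had an unadjusted p under 0.05 and passed the adjusted p, also in DESeq2, and none was called by either tool. This was *PAX8*, a thyroid and kidney factor, at 1329 and 1296 against 1129 and 1125 counts (-0.47; -0.07 when rescaled).

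Among T-box factors, *TBX2* (ENSG00000121068), a repressor that lets cells bypass senescence, showed the largest fall of any member in the fit of all 4 libraries. It lies on the plus strand of chromosome 17 of GRCh37, from 59477204 to 59486827. Its counts were 1214 and 1236 with shControl against 450 and 403 with shKDM2B, with both shKDM2B libraries far below the controls. Expression was 41.4 ± 1.44 CPM against 12.1 ± 0.845 CPM (SD, n = 2 each), and the log2 fold change was -1.77 (SE 0.06, adjusted p = 1.12e-19, edgeR's quasi-likelihood test). The antisense gene *TBX2-AS1*, which spans *TBX2* on the opposite strand, moved with it, from 1220 and 1258 to 516 and 442 counts (-1.62, SE 0.06), without exonic bases in common.

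The close paralog *TBX3* had 1409 and 1410 counts against 1396 and 1302, at -0.31 with TMM and 0.09 with the ribosomal protein scaling, under 1.5-fold in both. *TBX15* had 684 and 702 against 1006 and 928 (0.23; 0.63 and called when rescaled). *TBX1*, the gene of the 22q11 deletion syndrome, had 9 and 12 against 4 and 9 (-0.93, adjusted p = 0.144, edgeR) and ranged from -1.62 to -0.46 when 1 library was left out. The other 3 T-box genes did not pass.

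SOX factors bind DNA through an HMG box and specify neural, glial and cartilage cells. Of 8 tested, 1 rose and none was called lower by edgeR or DESeq2, although 3 were lower at an unadjusted p under 0.05. *SOX4*, a factor of progenitor cells, had 48 and 57 counts with shControl against 110 and 119 with shKDM2B, the groups well apart (log2 fold change 0.88, SE 0.16, adjusted p = 3.43e-05, edgeR). *SOX9*, the master regulator of cartilage and the most abundant SOX member (6.69 RPKM in shControl), had 786 and 769 against 763 and 815 (-0.23 with TMM, 0.17 with the ribosomal protein scaling). *SOX15* had 74 and 85 against 130 and 139 (0.51), and it was called without shControl 2 (0.64) and with the ribosomal protein scaling (0.91).

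Of 12 tested genes known as targets of SOX9 or SOX10, 4 rose, where 13.3% of all genes did. The other 8 were not called, and the median was 0.34. *COL11A1*, which encodes a cartilage collagen, went from 50 and 40 to 714 and 690 counts (log2 fold change 3.71, SE 0.12, adjusted p = 2.41e-20, edgeR). *COL9A2*, another cartilage collagen gene, had 18 and 13 against 77 and 74 (2.03), *EDNRB*, the endothelin receptor gene of neural crest cells, 70 and 64 against 152 and 167 (1.00), and *GFAP* rose by 0.98. *SOX9* did not reach 1.5-fold in either direction, and *SOX10* was not among the members. A link of these rises to either factor was not tested.

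With TMM, zinc finger factors of the GATA and ZIC families stayed under 1.5-fold or did not pass. The 3 ZIC genes, regulators of cerebellum and neural crest, had closely similar values: *ZIC1* 337 and 308 against 516 and 479 counts, *ZIC2* 203 and 174 against 297 and 287, and *ZIC4* 126 and 115 against 185 and 184. Their log2 fold changes of 0.38, 0.38 and 0.37 all passed the adjusted p (0.0135 at most, edgeR), and with the ribosomal protein scaling all 3 were called (0.76 to 0.78). *ZIC1* and *ZIC4* overlap on opposite strands of chromosome 3. *GATA6*, a factor of endoderm and heart, had 244 and 265 counts against 371 and 372 (0.30, or 0.70 and called when rescaled). *GATA3*, a T-cell factor, had 52 and 45 against 82 and 77 (0.46, or 0.86 and called when rescaled). *GATA2*, a blood factor, had 4 and 8 against 12 and 16 (0.96, adjusted p = 0.107, edgeR). *GATA2* ranged from 0.54 without shControl 1 to 1.56 without shControl 2, and was 1.35 and called (adjusted p = 0.0179, edgeR) with the ribosomal protein scaling.

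The direction of the calls went with the level in control cells. Factors called higher had a median of 0.323 RPKM in shControl (0.0117 to 3.16). Of the 15, 10 (66.7%) lay under 1 RPKM, as did 41 of all 88 tested factors (46.6%). Factors called lower had a median of 6.03 RPKM (0.697 to 19.8), with 2 of 10 under 1 RPKM. The same split was present over all genes, where 61.7% of those called higher and 17.2% of those called lower were under 1 RPKM, among 29.3% of all genes tested with a known length. Of the 10 most abundant factors over the 4 libraries, led by *FOXM1*, *FOXK2* and *FOXL1*, 4 were called lower and 6 were not called. The level was part of both the fold and the filter, so no test was made of this relation.

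**Figure D4:**
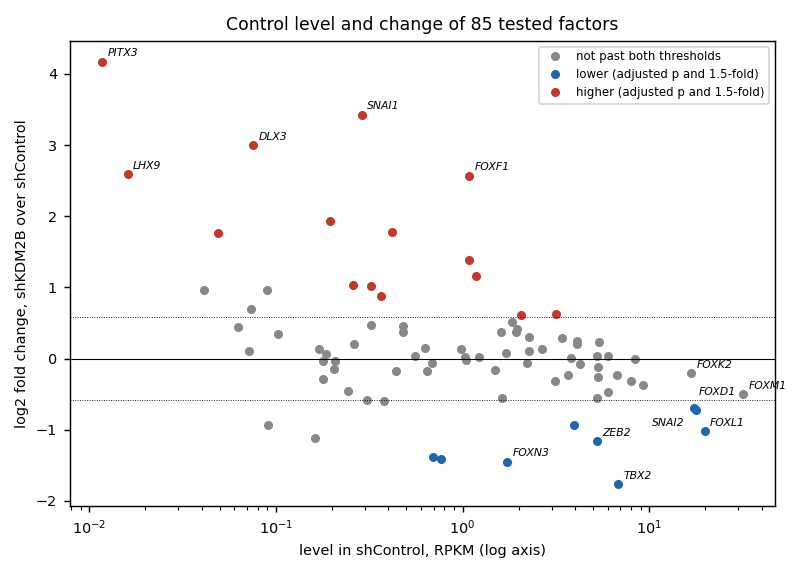
Level in shControl (RPKM, mean of 2 libraries, log axis) against the log2 fold change (shKDM2B over shControl) of each of 85 tested factors. Factors called higher (red) lie at 0.0117 to 3.16 RPKM and factors called lower (blue) at 0.697 to 19.8 RPKM.

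**Figure D5:**
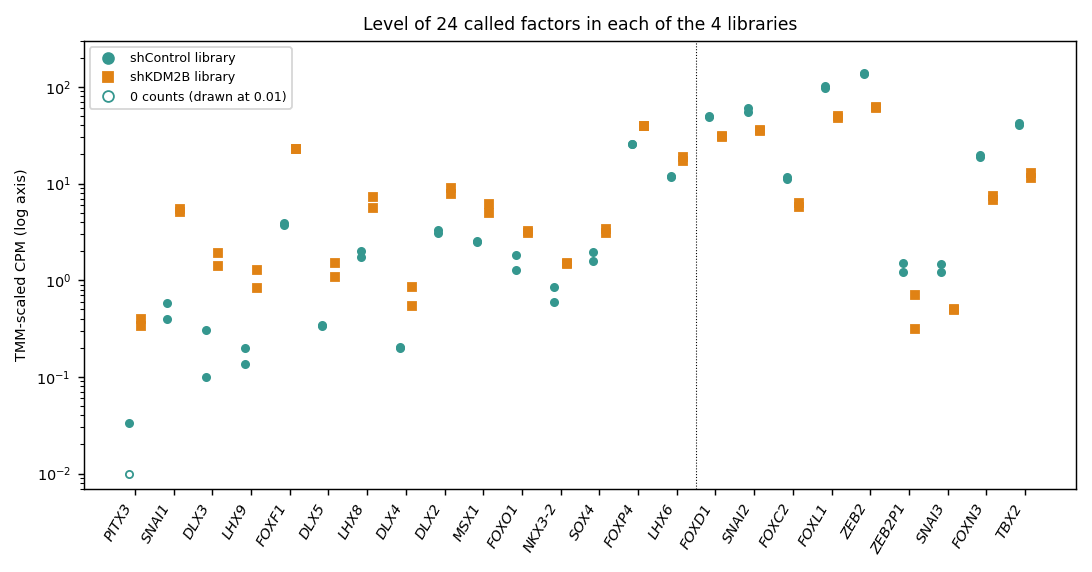
TMM-scaled level in CPM (log axis) of 24 called factors in each library, ordered by log2 fold change, with shControl as circles and shKDM2B as squares. For every factor both libraries of a group lie on the same side of both libraries of the other group, and the open circle marks the library in which *PITX3* had 0 counts.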

How the data were processed

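Polyadenylated RNA of 4 libraries was read as 50 bp single-end reads in 3 lanes each. Per the submitters' processing notes and the supplement, the authors used CASAVA 1.8.2, TopHat2 2.0.11 with Bowtie and SAMtools 0.1.19.0 on hg19, and counted on Ensembl annotation. The deposited raw counts were used, with lanes combined. The authors' normalized values (a signal: counts divided by a size factor), fold changes (a ratio), log2 fold changes, p-values and adjusted p-values from DESeq were deposited too and left unused. The Ensembl release and strand setting were not given in the sources used here.

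Counts were scaled by TMM and tested with the quasi-likelihood test of edgeR 4.0.16 (R 4.3.3), shKDM2B against shControl without covariates, on 21783 genes whose mean count reached 10 in either group. The common biological coefficient of variation was 2.62%. DESeq2 1.42.0, other scalings (DESeq2 size factors, ribosomal protein genes), filters (none, a mean of 50), a replicate block, each library left out, genes sharing under 50% of exonic bases and no fold threshold were alternatives. RPKM used TMM-scaled counts and union exon lengths from a GENCODE annotation of GRCh37, which was matched for 21646 genes. Intervals are exact at 95% and cover counting error only. Python 3.11.15, pandas 2.3.3 and scipy 1.17.1 were used.

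The members, the lists of cofactors, other developmental factors, FOXO, FOXM1, SOX9 and SOX10 targets, transition genes and cell markers, and the alternatives were chosen with earlier results of these data known. Counts per library were given for called members, the 10 of highest level and those whose call changed with an alternative. Of each outside list, up to 4 called genes of smallest adjusted p were named by rule. The other transition genes, and the other developmental factors that passed the filter only through shKDM2B, were named after their values were seen. Some genes are counted but not reported here by name. Within a group, libraries differed by more than sampling noise (median chi-square 0.648 for shControl, 0.593 for shKDM2B, 0.455 under sampling alone).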

Additional observations from a re-analysis of the deposited data

How the results depend on the processing

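No called gene named here reversed its direction under an alternative. Of the factors under 1.5-fold, *FOXO3*, *FOXK2*, *TBX3*, *SOX9* and *PRRX1* were negative with TMM and positive with the ribosomal protein scaling. Scaling on ribosomal protein genes gave 7060 higher and 413 lower calls over all genes, and 33 higher calls among the factors. Called higher under it were 6 cofactors, 19 other developmental factors and 8 targets of SOX9 or SOX10. Called lower under it were 0 cofactors, 0 other developmental factors, 0 FOXO targets, 0 FOXM1 targets and 1 transition gene. Without a fold threshold, 6188 genes were higher and 6416 lower, among them 29 and 22 factors, 6 and 8 cofactors, and 13 and 7 other developmental factors. It also gave 8 lower FOXO targets and 2 higher and 15 lower FOXM1 targets. The DESeq2 test called 1 cofactor, 4 other developmental factors and 4 transition genes higher, and a minimum mean of 50 counts left 3 other developmental factors and 5 transition genes called higher.

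With 1 library left out, 15 to 17 factors were called higher and 11 to 13 lower, over all genes 2761 to 2823 higher and 1426 to 1531 lower, and *KDM2B* ranged from -1.68 to -1.53. Higher calls ranged from 2 to 3 in cofactors, 5 to 10 in other developmental factors and 5 to 7 in transition genes. Lower calls ranged from 1 to 2 in cofactors, 2 to 5 in FOXO targets and 3 to 4 in transition genes. Replicate numbers did not pair the libraries (correlation of same-numbered deviations 0.05). With the replicate number as a block, 15 factors were called higher and 11 lower, the added one being *LHX2* (adjusted p = 0.0498, edgeR's quasi-likelihood test). Leaving out genes that share at least 50% of their exonic bases removed *FOXD1* and left 9 lower calls.

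With 2 libraries a group, and a hairpin not given for each, effects of a hairpin and of *KDM2B* loss cannot be told apart. Factors of fewer than 10 counts in a library are known only within wide counting limits.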

Other observations

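Of 35 tested developmental regulators outside the families above, 7 rose and 2 fell, where 13.3% and 6.79% of all genes did (median log2 fold change 0.34). Of the 7, *POU3F2*, *ALX4*, *TFAP2B*, *TCF21* and *EOMES* reached the minimum mean of 10 counts only through their shKDM2B counts. The number that rose therefore depends on the filter. DESeq2 called 4 higher, and 5 rose without shControl 2 and 10 without shControl 1. *ATOH8*, a helix-loop-helix factor, had 161 and 140 counts with shControl against 645 and 627 with shKDM2B (log2 fold change 1.83, SE 0.09, adjusted p = 8.43e-16, edgeR's quasi-likelihood test). *OTX1*, a homeobox gene of forebrain, had 14 and 19 against 43 and 64 (1.44, SE 0.28). The 2 that fell were *BHLHE41*, a circadian repressor (2420 and 2305 against 1518 and 1537, -0.88, SE 0.04), and *EBF2*, a factor of brown fat and neurons (1749 and 1719 against 1180 and 1144, -0.83, SE 0.04). With the ribosomal protein scaling these were -0.48 and -0.43 and no longer called.

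Antisense genes did not always follow their partner. *ZEB1-AS1* was called higher, from 49 and 66 to 128 and 119 counts (log2 fold change 0.85), beside *ZEB1* at 0.24. *ZEB2-AS1*, which shares 41.4% of its exonic bases with *ZEB2*, had 23 and 25 against 26 and 34 (0.07), while *ZEB2* fell by 1.16. *SNAI3-AS1* was at -0.81 beside *SNAI3* at -1.41. *SOX9-AS1* was at -0.22 (0.17 with the ribosomal protein scaling) and *PAX8-AS1* at -0.49, next to -0.23 and -0.47 for their partners. *FOXS1*, a forkhead gene, was at least 3.65-fold higher against a floor of 3 counts over the shControl group, a limit that fell to 1.69 without shKDM2B 1, 1.8 without shControl 1 and 1.85 without shControl 2, and was 5.58 without shKDM2B 2.

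The motif CAGGTG, an E-box bound by SNAI and ZEB proteins, was searched on both strands of the 250 bases upstream and was found in 10 of the 60 matched factors, against 17.5% of all promoters. It occurred in 3 of 10 factors called higher and 7 of 47 not called, and in none of the 3 called lower.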
